A study of Mus musculus with 30 samples.

Results

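The libraries described here are the 8 RNA sequencing libraries of Tet2 knockout (KO) mice among the 24 RNA sequencing libraries of a study that holds 30 samples in all. The 4 libraries from mice aged 9 and 12 months (late) were compared with the 4 from mice aged 3 and 6 months (early). They were chosen by genotype and age. All mice were of the mixed 129/C57BL/6 strain. Each KO library came from the marrow of 3 mice that was pooled and sorted into 2 fractions, LSK, which are stem and progenitor cells without lineage markers but with Sca1 and cKit, and Lin-negative, the wider population without lineage markers. There was 1 library for each fraction at 3, 6, 9 and 12 months. The same design was sequenced for mice with normal Tet2 (WT) and for mice whose Tet2 protein lacks catalytic function (Mut), 8 libraries each, and these serve below only to place the KO values. Ages therefore stand in for replicates, and a library of pooled mice carries no estimate of the spread between animals.

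The Tet2 protein oxidises methylated cytosines in DNA, a step towards their removal, and its loss gives blood stem cells a growth advantage that favours myeloid over lymphoid output. In marrow, B cells arise from lymphoid progenitors through pro-B and pre-B stages, in which the transcription factors Ebf1 and Pax5 fix the lineage, the Rag recombinase assembles antibody genes, and a surrogate light chain of Vpreb and Igll1 proteins tests the first heavy chain. With age, marrow of normal mice is known to make fewer B cell precursors, while stem cells that lean towards platelets and myeloid cells become more common. In bulk RNA such as this, fewer cells of a type and less RNA per cell cannot be told apart.

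The KO libraries held 31455530 to 42437041 reads. Tet2 itself was read at 1845, 1347, 2354 and 1484 normalized counts in the LSK libraries at 3, 6, 9 and 12 months and at 1302, 1013, 2611 and 1407 in the Lin-negative libraries. The early and late values overlapped, and the difference did not pass the test (log2 difference 0.49 ± 0.23 SE, limma adjusted p = 0.274). Reads were summed over the whole gene, so this does not check the loss of single exons. The fraction labels were not mirrored by the sort markers. Ly6a, which encodes Sca1, was read at 376.4 to 584.3 in the LSK and 540.9 to 761.9 in the Lin-negative libraries, a difference of -0.39 ± 0.14 log2 (limma adjusted p = 0.286), while Kit was 0.29 ± 0.07 higher in LSK without passing (adjusted p = 0.285). S100a8, a protein of mature neutrophils, stood at 291300 to 574700 in the LSK libraries. Across all genes limma called 0 between the fractions with age as a factor (0% of 15589, with 2500 at an unadjusted p under 0.05), edgeR 0 and DESeq2 263. The pairs of fractions still differed by more than sampling noise. LSK and Lin-negative are therefore the names of the labels.

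At 9 and 12 months, genes of the B lineage were far lower than at 3 and 6 months, some mature neutrophil genes were moderately lower, and a smaller set that includes Clca3a1 and Selp was higher. In a limma fit over the 8 libraries with fraction as a factor, 297 genes fell (1.91% of the 15589 tested) and 50 rose (0.321%) at an adjusted p under 0.05. Each of the 347 had both late libraries beyond both early ones in both fractions. Of all 15589 genes tested, 1667 lay below and 1159 above in this way. Passing the test favours such a pattern, so it is no separate support. The median log2 difference over all genes was 0.02. Log2 differences are on the log2(value + 1) scale, which understates changes of low genes. The count leaned heavily on the model and on single libraries. With the age pool as a block, which treats the 2 fractions of an age as 1 pool, 4 genes passed (0.0257%), among them Igll1, Pax5 and Siglech, which were lower. Without the 6-month libraries 0 passed in limma (1383 at an unadjusted p under 0.05), although Pax5 was still lower by -4.25 (adjusted p = 0.0802). The count was 601 without the 3-month LSK library, 40 without the 3-month Lin-negative, 24 without the 6-month LSK and 38 without the 6-month Lin-negative. It was 183 without the 9-month LSK, 321 without the 9-month Lin-negative, 134 without the 12-month LSK and 81 without the 12-month Lin-negative library.

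The B lymphoid genes showed the deepest change. Of the 20 listed, 16 fell and 0 rose, where 1.91% of all genes fell and 0.321% rose. The median log2 difference of the 20 was -2.41. Of the 16, the block kept 2 (Igll1 and Pax5), or 11 where the 2 fractions at 3 months were taken as separate pools, and limma called 8 without the 6-month LSK library, 10 without the 6-month Lin-negative library and 0 without both. The plot of the list by library shows 2 blocks of colour in each fraction that change between 6 and 9 months.

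**Figure D1:**
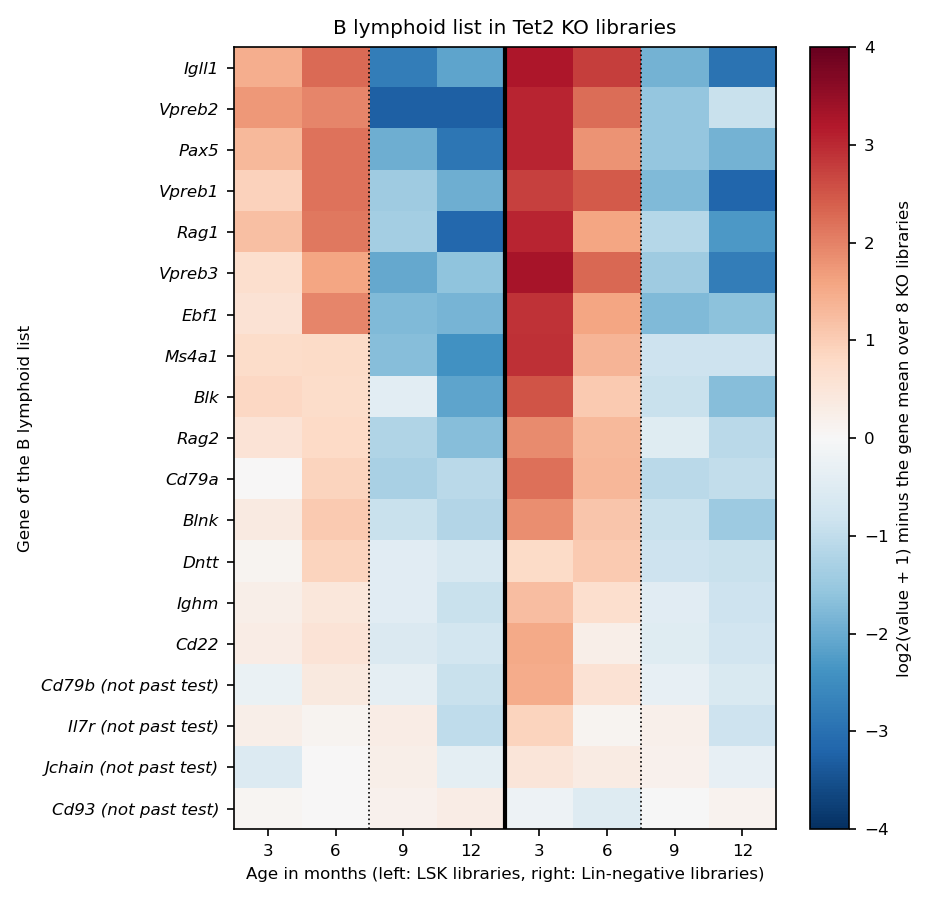
Each row is 1 of 19 genes of the B lymphoid list and each column a KO library, by age in months, with colour for log2(value + 1) minus the mean of the gene over the 8 libraries. The 15 drawn that passed the test are above their mean (or close to it) at 3 and 6 months and below it at 9 and 12 months in both fractions, and the 4 at the foot did not pass.

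The genes of the surrogate light chain and of antigen receptor recombination fell most. Igll1, the lambda 5 chain, was read at 196.1, 343.3, 9.69 and 15.69 in LSK and 684.2, 494.9, 18.42 and 8.419 in Lin-negative libraries at 3, 6, 9 and 12 months. All 4 early libraries lay above all 4 late ones in both fractions. The log2 difference was -4.86 ± 0.37 SE, 29.0-fold (limma adjusted p = 0.00078). Vpreb1, the partner chain, went from 123.2 to 431.2 in the early to 6.315 to 23.26 in the late libraries (-4.15 ± 0.48, adjusted p = 0.00517), and Vpreb3 from 156.9 to 967.1 to 13.68 to 31.39 (-3.92 ± 0.47, adjusted p = 0.00517). Vpreb2, a near-identical copy of Vpreb1 whose reads could be shared with it, was listed at 0 in both late LSK libraries. Rag1, a subunit of the recombinase, was read at 177, 336.9, 29.07 and 7.847 in LSK and 639.6, 230.3, 34.53 and 14.73 in Lin-negative libraries, a difference of -3.97 ± 0.48 (limma adjusted p = 0.00517). Rag2, the other subunit, fell by 2.25 on the log2 scale, and Dntt, which adds untemplated bases at the joints, by 1.40. These 7 genes were put together after their values were seen, so that their count of 7 is no separate result (median -3.97). With the age pool as a block 1 of them passed, and 3 with the Y-linked index described below in the model.

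Among the transcription factors of the lineage the change was uneven. Pax5, which commits cells to the B lineage, was read at 307, 558.7, 31.01 and 15.69 in LSK and 1020, 436.1, 41.44 and 32.63 in Lin-negative libraries. Early and late libraries did not overlap, and the difference was -4.16 ± 0.34 (limma adjusted p = 0.00078). Ebf1, which acts before it, was read at 122.1, 314.5, 23.26 and 21.58 in LSK and 598.9, 245, 23.02 and 25.26 in Lin-negative libraries, and it fell by 3.51 (adjusted p = 0.00517). The 4 late values of Ebf1 lay within 21.58 to 25.26. Spib, an Ets family factor of B cells and plasmacytoid dendritic cells, fell by 2.78 (adjusted p = 0.00344), and Pou2af1, a coactivator of octamer factors, by 1.56 (adjusted p = 0.036). Lef1, which is active in early lymphoid cells, fell by 1.76 (adjusted p = 0.0419). Factors with a wide role in blood did not pass: Tcf3, which encodes the E2A proteins, differed by -0.23 (adjusted p = 0.526), Ikzf1 by -0.21 (adjusted p = 0.464) and Foxo1 by -0.35 (adjusted p = 0.192). Of 14 factors grouped after their values were seen, 5 fell and 0 rose, where 1.91% of all genes fell, and 1 passed with the age pool as a block.

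Genes of the B cell surface and of receptor signalling fell as well. Cd79a, the signalling chain of the receptor, had 620.7, 1138, 246.1 and 286.4 in LSK and 2821, 1535, 287.8 and 309.4 in Lin-negative libraries. No late library reached an early one, and the difference was -2.23 ± 0.29 (limma adjusted p = 0.00737). Its partner Cd79b reached 492.4 to 720.5 in the late and 754 to 2567 in the early libraries and missed the threshold (-1.09, adjusted p = 0.0572). Ms4a1, which encodes CD20, fell by 2.89 and the adaptor Blnk by 2.19. Ighm, the mu heavy chain, fell by 1.30 (adjusted p = 0.0132), from 18310 to 37010 early to 8503 to 11510 late. In a group of 17 such genes formed after their values were seen, 9 fell and 0 rose, with a median of -1.90, where 1.91% of all genes fell. With the age pool as a block 0 of the 17 passed.

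The 4 members of the B lymphoid list that did not pass were Cd79b, Il7r, Jchain and Cd93. Il7r, the interleukin 7 receptor chain that other lymphoid cells also carry, differed by -0.67 (limma adjusted p = 0.272), and its 9-month values of 764.6 and 706.7 overlapped the early range of 665.1 to 1142. Jchain, which links secreted antibodies and is abundant in plasma cells, was read at 16390 to 33740 early and 18250 to 28110 late (-0.14, adjusted p = 0.745). Of 8 plasma cell genes grouped after their values were seen, limma called 0, where 1.91% of all genes fell, and their median was -0.39. Cd93, which stem and progenitor cells express too, differed by 0.30 (adjusted p = 0.197). Of 177 immunoglobulin variable segments tested, 7 fell and 1 rose, with a median of -0.43, and reads of these near-identical segments may be split between copies.

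RefSeq promoter windows, from 250 bases before to 50 after a gene's start on GRCm38.p6, were at hand for 12 of the 16 B lymphoid genes that fell. They are shown because these genes moved together. Of 5 motifs searched on both strands, the E box CAGGTG, a sequence that E2A proteins are known to bind, was found in 7 of the 12 windows (58.3%) and in 20.9% of the windows of 10947 tested genes. The octamer ATGCAAAT was in 2 (16.7%, against 1.68%), the core CCCNNGGG of the Ebf1 motif in 2 (16.7%, against 20.7%), AGATAA, which Gata factors bind, in 1 (8.33%, against 8.4%) and CCGGAAG, an Ets core, in 0 (against 19.3%). Vpreb1 and Vpreb2 are copies and share their E box. Motifs were counted where they overlapped as well, and a match describes letters only, not a bound site. The 120 bases around the E box nearest to the start follow for 4 of the genes, read along the strand of the gene, with CAGGTG or its reverse complement in capitals.
Igll1, chr16:16863936-16864055, minus strand: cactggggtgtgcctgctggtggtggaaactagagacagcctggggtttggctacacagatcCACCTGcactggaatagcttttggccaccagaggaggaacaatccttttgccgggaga
Vpreb1, chr16:16869281-16869400, minus strand: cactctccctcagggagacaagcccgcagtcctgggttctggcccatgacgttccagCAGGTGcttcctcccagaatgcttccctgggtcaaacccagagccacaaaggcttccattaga
Rag1, chr2:101649605-101649724, minus strand: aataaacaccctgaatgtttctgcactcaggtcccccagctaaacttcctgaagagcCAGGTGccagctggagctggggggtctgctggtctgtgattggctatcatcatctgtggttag
Cd79a, chr7:24897286-24897405, plus strand: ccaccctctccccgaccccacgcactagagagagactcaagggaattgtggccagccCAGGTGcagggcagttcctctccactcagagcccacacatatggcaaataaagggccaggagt

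Genes of plasmacytoid dendritic cells, which share several factors with B cells, changed in part. Siglech, a surface lectin of these cells, was read at 736.1, 1103, 204.5 and 136.3 in LSK and 1633, 1292, 166.9 and 142.1 in Lin-negative libraries. Early and late values did not overlap, and Siglech was among the genes that the block kept (-2.83 ± 0.23, limma adjusted p = 0.00078, and 0.0244 with the block). Ly6d, a mark of lymphoid and plasmacytoid precursors, fell by 2.09, Pacsin1 by 1.78, Cox6a2 by 1.99 and Ccr9, a chemokine receptor, by 1.52. Irf8, Irf7, Tcf4, Bcl11a, Tlr7 and Tlr9 did not pass. In all 6 of 14 genes grouped after their values were seen fell, where 1.91% of all genes fell, and the block kept 1. MHC class II genes did not pass either, with H2-Ab1 at -0.56 (adjusted p = 0.218), and of the 16 genes in the list of dendritic cells and MHC class II, 2 fell (Siglech and Cd209a).

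Of 16 late granule and S100 genes, 3 fell and 0 rose (median -0.75), where 1.91% of all genes fell. With the age pool as a block, or with the Y-linked index in the model, 0 of the 16 passed. Cxcr2, the receptor that draws neutrophils out of marrow, was read at 12310, 15920, 7617 and 5526 in LSK and 14550, 15430, 7744 and 5844 in Lin-negative libraries. All 4 early libraries exceeded all 4 late ones (-1.13 ± 0.15, limma adjusted p = 0.00783). Ly6g, the surface mark of mature neutrophils, fell by 1.10 (adjusted p = 0.0116) and the gelatinase gene Mmp9 by 0.998 (adjusted p = 0.033). S100a8 and S100a9 did not pass, at -0.54 and -0.73 (adjusted p = 0.382 and 0.27). The summed value of the 16 genes was 2369000 to 4323000 in the early and 1862000 to 2290000 in the late libraries.

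Receptors and effectors of mature neutrophils were among the genes that fell. In a list of 36 composed from the called genes and others of this kind, 23 fell and 0 rose (median -0.70), a count that the choice of the list raised, and 0 passed with the age pool as a block. The count was 31 with DESeq2, 14 with TMM scaling, 12 with edgeR, 4 with age as a number and 1 without the mean-variance trend. These included the complement receptor C5ar1, read at 5619, 6819, 3041 and 2705 in LSK and 6798, 6809, 3623 and 2583 in Lin-negative libraries (-1.13 ± 0.13, limma adjusted p = 0.00517). The formyl peptide receptor Fpr1 fell by 1.13, the lectin Clec4d by 1.66, the integrin chains Itgam and Itgb2 by 0.74 and 0.65, and the transcription factor Cebpb by 0.86. Genes of earlier granulocyte stages did not pass: of 11 primary granule and early factor genes limma called 0, where 0.321% of all genes rose and 1.91% fell, and Mpo was read at 112400 to 202500 over the 8 libraries. With the Y-linked index in the model, or without the 6-month libraries, 0 of the 36 passed. Without 1 early library the count was 25 (3-month LSK), 2 (3-month Lin-negative), 1 (6-month LSK) or 2 (6-month Lin-negative). Without 1 late library it was 12 (9-month LSK), 18 (9-month Lin-negative), 6 (12-month LSK) or 2 (12-month Lin-negative).

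**Figure D2:**
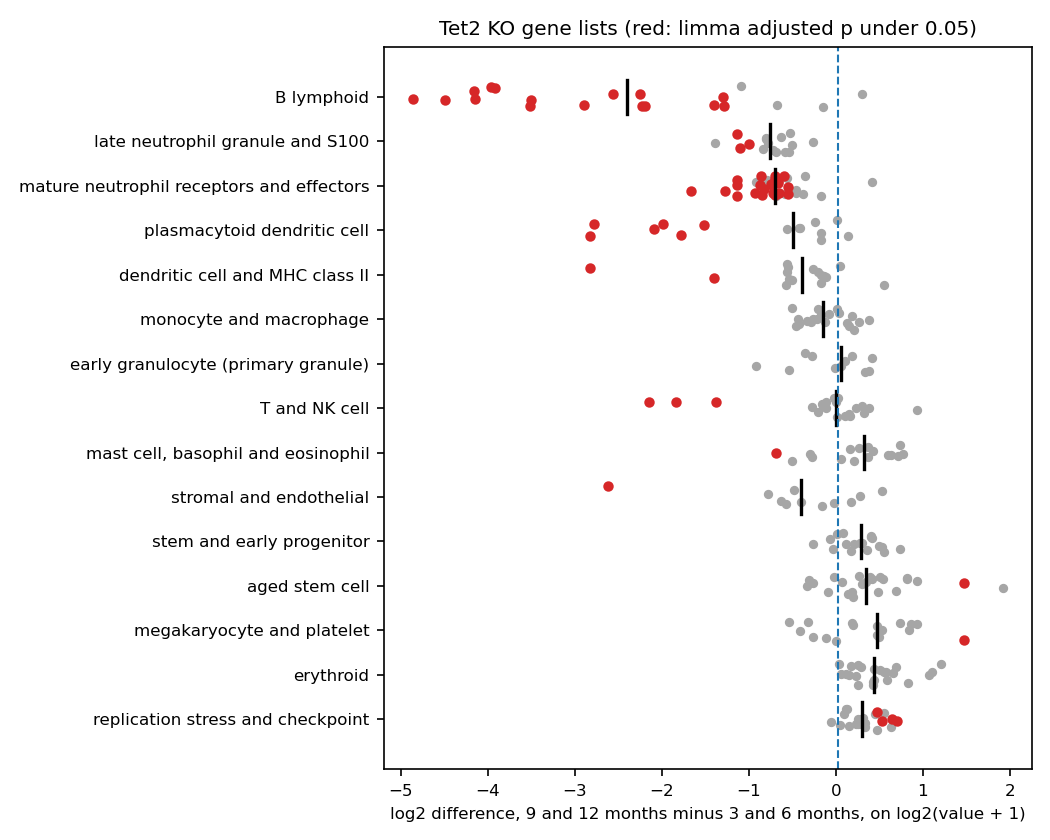
Each point is a gene, placed by its log2 difference between the 4 late and the 4 early KO libraries, in red where the limma adjusted p was under 0.05. Black bars are list medians and the dashed line is the median of all genes, 0.02. The B lymphoid list is spread between -4.86 and 0.30. All 16 late granule and S100 genes lie below 0, as do 35 of the 36 mature neutrophil receptors and effectors.

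Among markers of other cell types, calls were made in some lists, where 1.91% of all genes fell. Of 22 T and NK cell genes, 3 fell: Gzma, a granzyme, by 1.84, and the CD8 chains Cd8b1 and Cd8a by 2.15 and 1.37. Cd3e, which all T cells carry, was at 389.9 to 541.4 early and 453.6 to 726.3 late and did not pass (0.30, limma adjusted p = 0.378). Of 20 monocyte and macrophage genes limma called 0, 1 of 16 genes of mast cells, basophils and eosinophils fell (Hdc), and of 11 stromal and endothelial genes 1 fell, the endothelial cadherin Cdh5 (-2.61, adjusted p = 0.011). With the age pool as a block, none of these T and NK, mast cell or stromal genes passed. All 23 erythroid genes were higher late than early, with a median of 0.44, but none passed in limma. The median was 0.57 in LSK and 0.13 in Lin-negative libraries, and 8 of the 23 had separated groups. The summed value at 3, 6, 9 and 12 months was 68530, 103000, 105900 and 151800 in LSK libraries. In Lin-negative libraries it was 110100, 114800, 105800 and 157000, so the 9-month libraries were close to the 6-month ones. Slc4a1, the band 3 anion exchanger, came nearest (1.10, adjusted p = 0.0697). Of 18 stem and early progenitor genes 0 were called (median 0.29).

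The genes that rose were more scattered in function. Clca3a1, a secreted protein of the chloride channel accessory family, was read at 216.2, 203.6, 697.7 and 928.9 in LSK and 293.6, 147, 545.6 and 955.6 in Lin-negative libraries. All 4 late libraries lay above all 4 early ones (1.86 ± 0.25, limma adjusted p = 0.00783). Selp, P-selectin, is a platelet adhesion molecule and a known mark of aged stem cells. It was read at 105.3, 210, 571.7 and 432.6 in LSK and 203.5, 161.7, 374.1 and 476.7 in Lin-negative libraries, with no overlap (1.47 ± 0.25, adjusted p = 0.0199). Neither Clca3a1 nor Selp passed with the age pool as a block, or with the Y-linked index described below in the model. Over 26 alternative settings, Clca3a1 lost the threshold in 6 and Selp in 11. Selp was the sole called gene of the 23 tested aged stem cell genes (median 0.34) and of the 17 megakaryocyte and platelet genes (median 0.47). Of all genes 0.321% rose. Vwf, which both lists hold, missed the threshold (0.94, limma adjusted p = 0.161).

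Sox6, Kel and Ache were among the other genes that rose and were chosen after their values were seen. Sox6, a factor that represses embryonic globin, was read at 346.7 to 431.8 early and 715.9 to 810.1 late (1.06 ± 0.13, limma adjusted p = 0.00616). Kel, a blood group antigen, rose by 0.88 (adjusted p = 0.0149) and Ache, the acetylcholinesterase of red cells and synapses, by 1.06 (adjusted p = 0.0312). With the age pool as a block, Sox6, Kel and Ache did not pass. Of 22 genes of the replication checkpoint, listed after the called genes were seen, 4 rose, 0 fell and 18 did not pass: Atr, the kinase at stalled forks, by 0.64, Atad5 by 0.70, the helicase Blm by 0.53 and Wdhd1 by 0.47, with adjusted p from 0.0356 to 0.0492, and with the age pool as a block 0 of the 22 passed. Atr was read at 736.2 to 1254 early and 1435 to 1676 late. Of 32 cell cycle genes limma called 0 (median 0.03), where 0.321% of all genes rose.

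**Figure D3:**
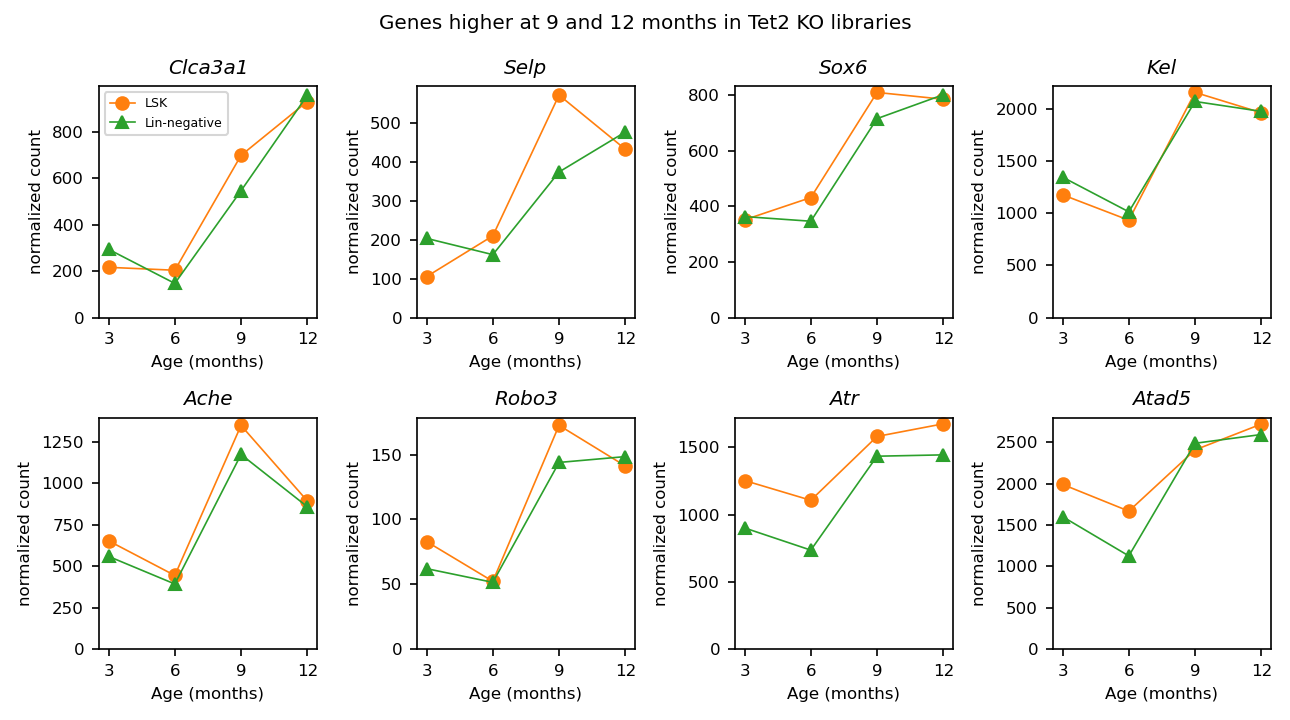
Normalized read counts of 8 genes that rose, by age in months, with 1 point per KO library and lines joining the libraries of a fraction. In each panel the 4 points at 9 and 12 months lie above the 4 at 3 and 6 months within each fraction, and Clca3a1 reached 928.9 and 955.6 at 12 months.

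The remaining lists gave hardly any calls in either direction, against 0.321% of all genes that rose and 1.91% that fell. Limma called 0 of 32 interferon response genes (median 0.03), 0 of 24 immediate early genes (-0.32), 0 of 22 heat shock and folding genes (-0.19), 0 of 17 p53 targets and inhibitors (-0.21), 0 of 17 histone genes (-0.38), 0 of 13 mitochondrially encoded genes (0.38), 0 of 32 ribosomal protein genes (0.08), 0 of 18 cholesterol synthesis genes (-0.21), 0 of 12 Hox and partner genes (0.29) and 0 of 22 leukaemia genes (-0.07). Of 26 inflammatory genes 1 fell, the cytokine Il1b, and of 17 haem and iron genes 1 fell, the iron exporter Slc40a1. In the list of 14 TET and DNA methylation enzymes 0 passed (median 0.02). Tet1 differed by 0.48 (adjusted p = 0.173) and Tet3 by 0.25 (adjusted p = 0.409).

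The median of the B lymphoid list was below 0 in both fractions. Within the Lin-negative libraries 12 genes fell (0.077%) and 0 rose in limma, namely Fcrla, Pax5, Cd79a, Spib, Siglech, Vpreb3, Cdh5, Cplx2, Ighg2c, Ly6d, Igll1 and Vpreb1. Within the LSK libraries limma called 0 genes (0% of 15589, with 1264 at an unadjusted p under 0.05), edgeR 0 and DESeq2 112. The 2 fractions rest on 2 libraries a side. The B lymphoid median was -2.09 in LSK and -2.88 in Lin-negative libraries, and Pax5 differed by -4.17 (adjusted p = 0.0919) and -4.14 (adjusted p = 0.0361). A test of the difference between the fractions called 0 genes in limma (329 at an unadjusted p under 0.05), 0 in edgeR and 0 in DESeq2. With the age pool as a block it called 225, of which 204 had the lower difference in LSK. The Lin-negative count of 12 became 2 with the block and 0 without the 6-month Lin-negative or the 12-month Lin-negative library. Without the 3-month Lin-negative library 0 fell and 1 rose. The count was 3 without the 3-month LSK, 3 without the 6-month LSK and 4 without the 9-month Lin-negative library. It was 13 without the 9-month LSK and 11 without the 12-month LSK library.

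The B lymphoid difference lay between 6 and 9 months. From 3 to 6 months the median of the list was -0.17, from 6 to 9 months -2.14 and from 9 to 12 months -0.40, where the median of all genes stayed within 0.05 of 0. Pax5 differed by -0.18, -3.75 and -0.64 over these steps. From 3 to 6 months Pax5 went up in LSK and down in Lin-negative libraries. Its small first step is thus a mean of opposite changes and does not show a steady level. The late neutrophil list went by 0.48, -0.92 and -0.31, so that its highest level was at 6 months. Across all genes, limma called 218 from 3 to 6 months (1.4%), 5417 from 6 to 9 months (34.7%) and 3797 from 9 to 12 months (24.4%). These steps compare 1 library per fraction at each age, so their spread is that between fractions, and pool and age cannot be told apart.

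The B genes fell in WT as well. There, 15 members of the B lymphoid list fell (median -1.88), where 8.67% of all genes fell and 3.98% rose. In Mut, 0 fell in limma and 1 rose, Jchain (median -1.27), where 0.0317% of all genes fell and 0.311% rose. Pax5 went from 426.5 to 810.4 in early to 5.247 to 11.92 in late WT libraries. In Mut it stood at 659.3 and 619.3 at 9 months and at 21.19 and 13 at 12 months. For Pax5, the 9-month Mut libraries thus resembled the early ones. Of the 347 genes called in KO, 279 (80.4%) were also called in WT, all in the same direction, which is 14.1% of the 1977 WT calls among genes tested in both. The Y index described below also differed by age in WT, at 0.917 and 0.717 at 3 months, 0.168 to 0.331 at 6 and 9 months and 0 at 12 months, and Xist ran from 0 and 2165 at 3 months to 18060 and 20890 at 12 months. With Mut 2 were shared (0.576% of the KO calls and 4.55% of the 44 in Mut), and its Y index was 0.472 to 0.881 early and 0.489 to 0.889 late. The part of sex in these shares was not tested.

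**Figure D4:**
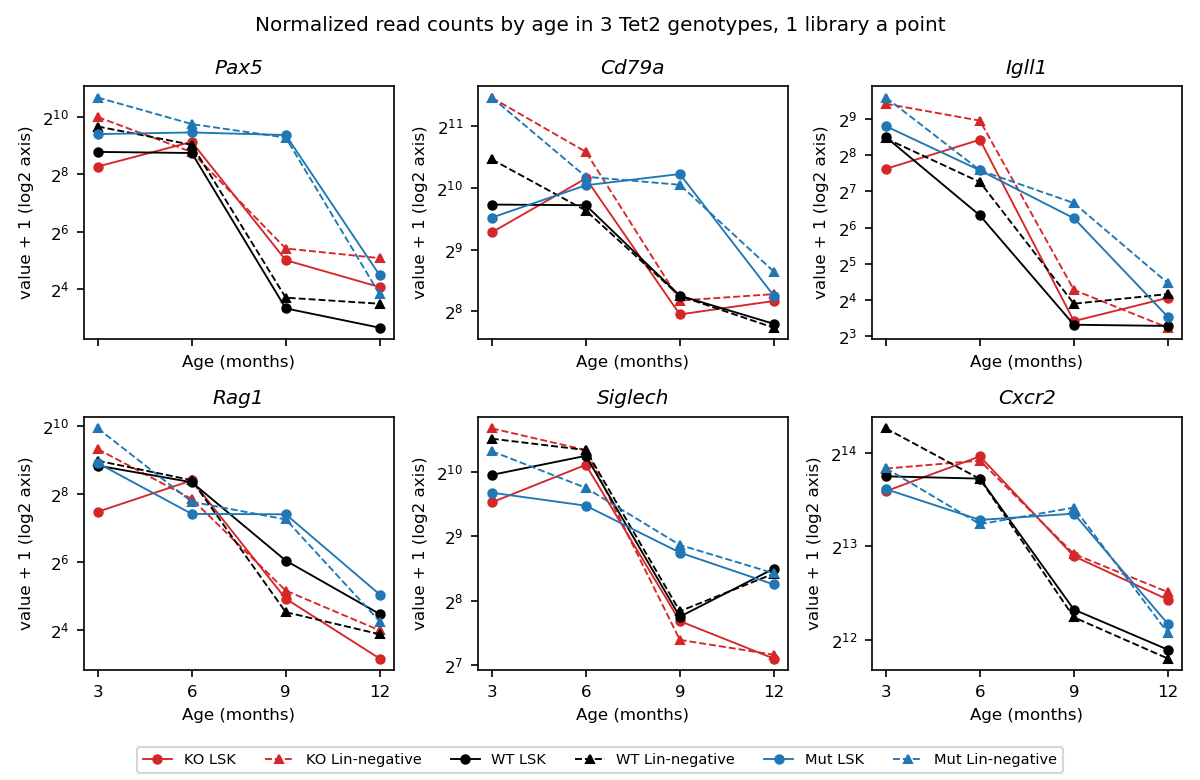
Normalized read counts plus 1 on a log2 axis against age in months for 6 genes, with 1 point per library, colours for genotypes, and circles and triangles for fractions. Pax5, Cd79a, Igll1, Rag1, Siglech and Cxcr2 are lower at 12 than at 3 months in all 3 genotypes, and in Mut the 9-month values of Pax5 (659.3 and 619.3) are still high.

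The age changes of KO were tested against those of WT and Mut directly. Against WT limma called 0 of 16061 genes (775 at an unadjusted p under 0.05), edgeR 0 and DESeq2 13. Against Mut limma called 0 (1137 at an unadjusted p under 0.05), edgeR 0 and DESeq2 54. The smallest limma p belonged to Col4a1, a basement membrane collagen, against WT, which rose in KO from 31.98 to 44.58 early to 79.98 to 104 late and ran from 47.23 to 80.82 over all WT libraries (difference of differences 1.54, adjusted p = 0.161). Selp rose by 1.21 more in KO than in WT, at an unadjusted limma p of 0.00757, which did not pass adjustment. Without the 3-month libraries 3 genes passed against WT and 16 against Mut, and without the 9-month libraries 4 passed against WT.

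Sex-linked genes differed between libraries. Of 9 tested 1 passed in limma, Xist, which rose (adjusted p = 0.0373), where 0.321% of all genes rose. Xist, the RNA that coats the inactive X chromosome of female cells, was read at 4.482, 2.132, 30630 and 12680 in LSK and 5248, 0, 34570 and 10970 in Lin-negative libraries. The 4 late libraries were above all early ones. The Y index, which is the summed value of Uty, Kdm5d, Ddx3y and Eif2s3y, all on the Y chromosome, as a share of the largest library, was 1, 0.811, 0.377 and 0.259 in LSK and 0.279, 0.831, 0.379 and 0.239 in Lin-negative libraries. It averaged 0.73 early and 0.314 late (two-sided exact permutation p = 0.111 within fractions, smallest possible 0.0556). At 3 months the LSK and Lin-negative libraries lay far apart in this index, and at each later age they lay close together. The design text has both fractions of an age from 1 pool, and whether this holds at 3 months was not tested, so the counts with the age pool as a block rest on that text. Erdr1 and Mid1, which lie at or near the pseudoautosomal region, rose by 2.18 and 2.002 (limma adjusted p = 0.00517 and 0.0394). Of the 347 called genes 7 map to X or Y, and the share of X and Y genes among all genes tested was not counted.

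When the Y index was a term of the model, 29 genes passed (0.186%), all of them lower, and 26 of these are among the 347. They included 9 of the B lymphoid genes, and all 347 kept their sign. Selp did not pass (adjusted p = 0.513), and the part of sex in its rise was not tested further. The 3-month Lin-negative library had an index of 0.279, within the late range of 0.239 to 0.379. Its Xist value of 5248 lay below the late range of 10970 to 34570. It read Pax5 at 1020, where the late libraries had 15.69 to 41.44. The part of sex in the fall of the B lymphoid genes was not tested further.

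**Figure D5:**
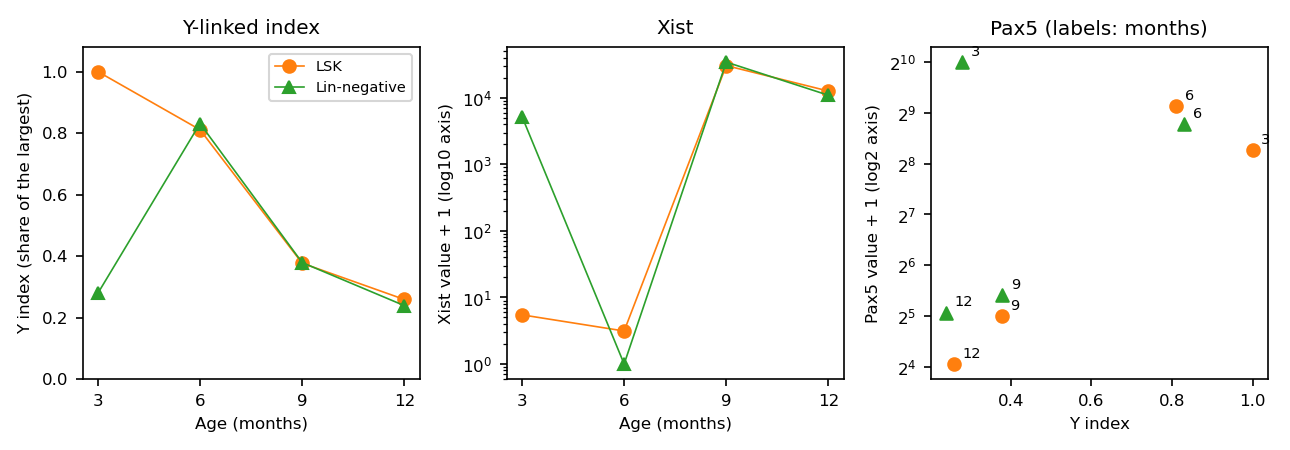
The Y index (left) and Xist plus 1 on a log10 axis (middle) by age in months, and Pax5 plus 1 on a log2 axis against the Y index with ages as labels (right), with 1 point per KO library. In the right panel the 3-month Lin-negative library, at an index of 0.279, lies beside the late libraries on the horizontal axis. It lies above them in Pax5, at 1020, and below them in Xist (middle), at 5248.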

How the data were processed

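RNA sequencing libraries of Tet2 KO marrow fractions were compared by age, with WT and Mut libraries beside them. The 6 bisulfite sequencing samples were not used here. Values in the deposited table are a signal: the authors divided the reads of each gene by 1 size factor per library. Trim Galore 0.6.5, STAR 2.7.3a, featureCounts, edgeR and the build mm10 are named without roles, per the submitters' processing notes, and the sources used here give neither the strand setting nor the annotation. Each library's values were whole multiples of 1 step, so reads were recovered (100% whole within 0.000001 reads). Coordinates are those of GRCm38, the same assembly as mm10, and 14763 of 16070 symbols matched.

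Because the unit is a normalized value, the main test was limma 3.58.1 (R 4.3.3, mean-variance trend) on log2(value + 1) for genes with at least 10 in at least 4 libraries, with Benjamini-Hochberg adjustment over all genes tested and a threshold of 0.05. The main fit left 5 residual degrees of freedom. edgeR 4.0.16 and DESeq2 1.42.0 were run on recovered reads. The limma, edgeR and DESeq2 fits of the main comparison, and limma with the age pool as a block, were tested on simulated counts. The other steps were not. Libraries of the same age were treated as pairs in an alternative because the design text has both fractions sorted from 1 pool. Their deviations from group means correlated (0.395 for 3 and 6 months, 0.665 for 9 and 12 months), and the consensus correlation of the block was 0.576. P-values and the standard errors given after ± rest on the spread between libraries only. Depth covers counting error only.

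The comparison and the gene lists were chosen with earlier results of these data known, and the libraries in it follow from genotype and age. The rule for named genes took the 15 largest rises and 15 largest falls past the threshold with separated groups and a mean log2 of at least 5, up to 5 called members of each list and the Tet genes. Which of these the text describes, and the added lists, were chosen after values were seen. Low genes and predicted gene models were left out. Some results for single genes are not reported here.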

Additional observations from a re-analysis of the deposited data

Results flagged for a closer look

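Among 40 genes (from the 15 largest rises, the 15 largest falls and the B lymphoid list), each checked in the 4 early and the 4 late KO libraries on the log2(value + 1) scale, 1 of 80 groups held a library far from the others by Dixon's ratio, where chance flags about 1 in 20. It was the 3-month Lin-negative library, which was read at 1142 for Il7r, against 665.1 to 718.2 in the other early libraries (ratio 0.858).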

How the results depend on the processing

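The count of 347 genes became 208 with edgeR and 1266 with DESeq2 on recovered reads, 49 without the mean-variance trend, 83 where age was a number, 1076 over all 24 libraries, 31 on the means of the 2 fractions per age and 29 with the Y index. The age pool as a replicate block gave 4, and 37 where the 3-month libraries were separate pools, an alternative chosen after seeing the data. Without the 3-, 6-, 9- or 12-month libraries it was 203, 0, 811 or 1753, and leaving out 1 library gave 24 to 601. TMM scaling, other pseudocounts and other filters moved it by less than 1.5 times.

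The 16 B lymphoid genes became 9 with the Y index, 10 without the trend, with age as a number or on age means, 2 with the block (11 with the 3-month libraries as separate pools), 0 without the 6-month libraries and 8 to 16 without 1 library. Fitted on the 4 libraries of 1 fraction alone, where 16 (LSK) and 17 (Lin-negative) members reached 10 in all 4, it was 5 in LSK and 8 in Lin-negative; the LSK contrast within the fit of 8 libraries called 0. These settings of the list were chosen after seeing the data.

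In LSK, where limma called 0, DESeq2 called 112, 4 passed without the 9-month libraries, and 0 to 4 without 1 library. In Lin-negative, the 12 became 514 with DESeq2, 0 without the trend, 2 with the block, 0 without the 3-, 6- or 12-month libraries and 0 to 13 without 1 library. The test between fractions gave 0, but 225 with the block and 1870 with the 3-month libraries as separate pools. KO against WT gave 13 with DESeq2, 1 without the trend, 3 with the 3-month and 4 with the 9-month libraries left out. KO against Mut gave 54 with DESeq2, 13 with a pseudocount of 5, 2 without the trend, 16 and 5 with the 3-month and the 12-month libraries left out and 0 to 1 without 1 library.

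Over 38 named genes, 978 alternative values held 684 on the same side of the threshold, 294 no longer past it and 0 of opposite sign. The cause of these shifts was not tested. With 1 library per age and fraction, no age had a replicate of its own. The spread between libraries holds age and pool together, and depth does not measure it.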
